A study of Homo sapiens with 24 samples.

Results

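The genes described here were 37 that act in glycolysis or in the response to low oxygen, out of 62757 in the count table. They were given by name and matched through their Ensembl identifiers, and all 37 were found. They fall into 16 glycolytic enzymes, 4 genes of glucose and lactate transport and of the pyruvate switch, 3 genes of oxygen sensing and 14 other targets of the hypoxia response. RNA had been sequenced in bulk from 24 libraries of HES3 human embryonic stem cells, an established line, which carried an NKX2-5 GFP and an NR2F2 mCherry reporter and had been grown as embryoid bodies under a Wnt-modulating cardiac protocol for at most 14 days. Cells had been edited with CRISPR-Cas9 at LHX2, ZNF503 or ZNF711, or at TRAC, a T cell receptor gene, as the control, so every library came from edited cells that carried both reporters. Each target was taken through an atrial condition, labelled AM, with retinoic acid at day 4, and a ventricular condition, labelled VM, without it, which gave 8 groups of 3 libraries numbered 1 to 3. The labels do not spell out AM and VM, and they do not say whether a number marks a separate differentiation, nor whether the edited cells were clones or pools. P values therefore measure the spread between these libraries, which may be partly technical.

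Glycolysis breaks glucose down to pyruvate in the cytosol, and lactate dehydrogenase turns pyruvate into lactate when it is not burned in mitochondria. When oxygen is low, prolyl hydroxylases of the EGLN family stop marking the HIF alpha subunits for destruction, and the stabilised HIF complex raises most glycolytic enzymes, glucose carriers, PDK1, which keeps pyruvate out of mitochondria, and secreted factors such as VEGFA. Early heart muscle cells rely strongly on glycolysis and shift toward fatty acid oxidation as they mature.

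Total counts ran from 2899786 to 7438010 per library, and the 37 genes together took 0.921% to 1.62% of them. Levels are given as CPM, counts normalised to the size of each library, and differences as log2 fold changes from edgeR's quasi-likelihood test, called at an adjusted p below 0.05 over all 17724 genes tested. The TRAC and LHX2 transcripts were counted at most 19 and 34 times in any library. The libraries labelled ZNF503 held more ZNF503 RNA than their TRAC controls, with means of 297 against 112 CPM in AM and 35.7 against 13.2 CPM in VM, so that label does not stand for a loss of its RNA below. ZNF711 RNA averaged 42.7 against 54.4 CPM in AM and 30.9 against 40.0 CPM in VM. Markers of heart muscle summed to between 11880 and 42730 CPM in every library, markers of blood to at most 1.09 CPM, and markers of endoderm and liver to 271 to 2127 CPM in AM and 1506 to 24590 CPM in VM.

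The genes spanned a wide range of levels. Per kilobase of exon, the glyceraldehyde phosphate dehydrogenase gene GAPDH stood first with a mean level of 771 CPM, followed by the enolase gene ENO1 with 293 CPM, the neuronal-type glucose carrier SLC2A3 with 227 CPM, TPI1 with 166 CPM and LDHA with 118 CPM. Among the regulators, the oxygen-regulated subunit HIF1A had 37.7 CPM per kilobase, EGLN3 3.98 and EGLN1 3.20. The membrane carbonic anhydrase CA9, a classical hypoxia marker, had medians of 0.416 CPM in AM and 0.860 CPM in VM and at most 11 counts in a library, and it alone did not pass the filter on low counts, which left 36 genes in the tests. ADM, for the vasodilator peptide adrenomedullin, and ANKRD37 were tested at medians under 8 CPM. ALDOA, the muscle aldolase, held only 1678 counts over all libraries, and 42.3% of its exon bases lie under another gene on the same strand in the GENCODE 29 annotation, so its values are uncertain. Copies of PGAM1 elsewhere in the genome held 6.47% as many counts as the gene itself, and those of AK4 2.67%.

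Promoter sequence is shown for 5 of the genes because their RNA showed the patterns described below. ENO1 and PGK1 varied together most closely, and BNIP3 was lower in every AM than in any VM library. EGLN3 was higher in AM on average, with ranges that overlapped, and ERO1A was high in the AM LHX2 libraries. Each stretch is the 250 bases before the gene's start in RefSeq on GRCh38.p14, read in the direction of the gene, with matches to the core of the hypoxia response element in capitals. The core was searched as ACGTG and GCGTG on both strands, so it also reads CACGT and CACGC, and a CACGTG holds a match on each strand.
ENO1: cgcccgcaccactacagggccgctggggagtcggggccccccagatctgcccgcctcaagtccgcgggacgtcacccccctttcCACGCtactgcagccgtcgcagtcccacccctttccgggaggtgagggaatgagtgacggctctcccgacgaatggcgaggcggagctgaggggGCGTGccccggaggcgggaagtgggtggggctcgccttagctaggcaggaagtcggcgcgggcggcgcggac
PGK1: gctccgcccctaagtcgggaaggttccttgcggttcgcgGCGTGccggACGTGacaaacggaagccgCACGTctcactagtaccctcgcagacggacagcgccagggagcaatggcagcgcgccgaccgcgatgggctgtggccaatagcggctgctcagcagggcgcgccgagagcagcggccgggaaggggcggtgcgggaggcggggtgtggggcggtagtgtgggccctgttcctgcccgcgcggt
BNIP3: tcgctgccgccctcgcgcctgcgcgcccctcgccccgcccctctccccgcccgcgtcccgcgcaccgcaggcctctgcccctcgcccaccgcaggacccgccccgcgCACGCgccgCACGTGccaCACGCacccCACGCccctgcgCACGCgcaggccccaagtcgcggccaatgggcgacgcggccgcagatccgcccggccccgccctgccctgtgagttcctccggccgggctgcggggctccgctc
EGLN3: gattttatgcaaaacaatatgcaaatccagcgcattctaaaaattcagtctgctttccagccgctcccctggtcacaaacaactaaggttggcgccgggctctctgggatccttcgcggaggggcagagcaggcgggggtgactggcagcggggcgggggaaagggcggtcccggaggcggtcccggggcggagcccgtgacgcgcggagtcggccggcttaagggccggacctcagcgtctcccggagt
ERO1A: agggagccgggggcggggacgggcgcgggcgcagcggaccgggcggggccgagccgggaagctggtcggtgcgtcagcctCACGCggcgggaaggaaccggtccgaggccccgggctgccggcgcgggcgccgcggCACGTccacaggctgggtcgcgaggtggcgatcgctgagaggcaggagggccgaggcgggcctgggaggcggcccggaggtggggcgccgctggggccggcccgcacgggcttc
They lie at chr1:8878687-8878936 (minus strand), chrX:78103998-78104247 (plus strand), chr10:131981924-131982173 (minus strand), chr14:33951075-33951324 (minus strand) and chr14:52695559-52695808 (minus strand). The script found 2 matches before ENO1, 3 before PGK1, 6 before BNIP3, where they crowd into 1 stretch, 0 before EGLN3 and 2 before ERO1A. Of all 35116 such windows in the RefSeq table, 43.2% held at least 1 match. The table had 65 windows for 33 of the 37 genes, of which 39 windows (60.0%) and 28 genes held a match. Genes had up to 7 windows each, and the share of all genes with a match was not counted, so the 28 have no background here. A match is only a description of the letters, and no factor binding was measured.

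The first comparison asked how the AM cells differed from the VM cells, averaged over the 4 targets, with 12 libraries on each side. The fit took these libraries as independent. Yet libraries with the same number shared deviations within VM, with r of 0.32 to 0.79 between a target and TRAC. The standard errors of this comparison may therefore be too small and its p values too low. A block for the replicate number, used below as an alternative, takes out only what AM and VM share. Most of the genes were lower in AM: 24 of the 36 tested fell, 1 rose and 11 were not called. Over all genes tested, 34.5% were called, 17.6% as lower and 16.8% as higher. The median difference of the 36 genes was −0.48 on the log2 scale, against −0.01 over all genes, and 31 of them had a negative fitted value. The plot of every gene in every library shows this as a colder left side, for AM, and a warmer right side, for VM. In bulk RNA, fewer cells of a type and less RNA per cell cannot be told apart.

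**Figure D1:**
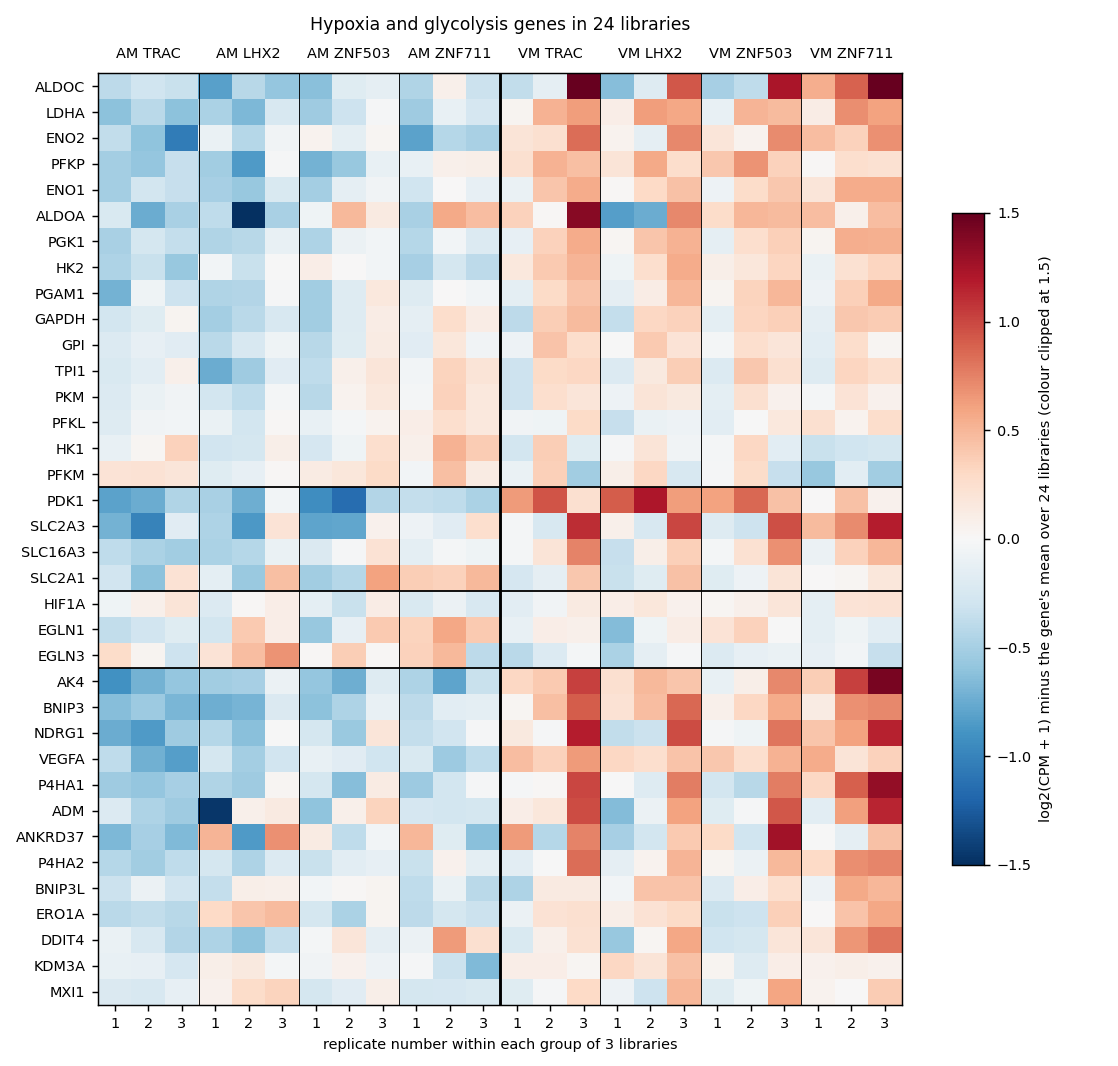
Levels of the 36 tested genes in the 24 libraries, as log2(CPM + 1) minus the gene's mean over all libraries, with colour clipped at 1.5. Columns are libraries by group and replicate number, rows are genes by role, and the thick line parts AM from VM. Most rows are blue on the AM side and red on the VM side, and the third column of each VM group is the reddest in many rows.

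Among the glycolytic enzymes, 11 of 16 fell in AM and 0 rose. LDHA, which makes lactate, had CPM of 454, 525 and 455 in AM TRAC and of 718, 1003 and 1073 in VM TRAC. Over all libraries its lowest, median and highest levels were 437, 513 and 689 CPM in AM and 644, 999 and 1133 CPM in VM. The ranges overlapped at their ends, with 10 of 12 AM libraries below every VM library. The averaged difference of LDHA was −0.81 (SE 0.10, edgeR adjusted p 6.66e-07), a level 1.75-fold lower in AM.

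ENO1, which makes phosphoenolpyruvate, ran from 1012 to 1500 CPM in AM around a median of 1230, and from 1397 to 2211 CPM in VM around a median of 1908. Its difference was −0.60 (SE 0.09, edgeR adjusted p 1.26e-05), with 10 of 12 AM libraries below all VM libraries. PGK1, for the kinase that yields the first ATP of the pathway, fell by 0.57 (SE 0.09, edgeR adjusted p 3.08e-05), from a VM median of 522 CPM to an AM median of 330 CPM, with 8 of 12 AM libraries below all of VM. PFKP, the platelet form of phosphofructokinase, fell by 0.68 (SE 0.09, edgeR adjusted p 1.18e-06), with medians of 235 CPM in AM and 392 CPM in VM and again 10 of 12 AM libraries below all of VM. For these 4 enzymes most AM libraries, but not all, lay below the VM range.

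The other enzymes that fell did so by 0.29 to 0.93 on the log2 scale. Hexokinase 2 (HK2), the inducible enzyme that traps glucose in the cell, fell by 0.48 (edgeR adjusted p 1.42e-05) from a VM median of 228 CPM to 156 CPM. ENO2, the neuronal enolase, fell by 0.75 (edgeR adjusted p 8.11e-06), PGAM1 by 0.47 (edgeR adjusted p 0.00122), GAPDH by 0.34 (edgeR adjusted p 0.0206) and the isomerase gene GPI by 0.29 (edgeR adjusted p 0.00616). ALDOC, the brain aldolase, fell by 0.93 with a large error (SE 0.26, edgeR adjusted p 0.00950), since its VM levels ran from 43.2 to 205 CPM and its AM levels from 38.2 to 71.9 CPM. ALDOA fell by 0.59 (edgeR adjusted p 0.0384) but lost its call in 12 of 24 fits with 1 library left out, with the smallest difference, −0.39 (edgeR adjusted p 0.137), without VM LHX2 replicate 3.

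Of the 16 enzymes, 5 were not called. The muscle phosphofructokinase PFKM had a positive fitted value of 0.22 (edgeR adjusted p 0.0712) and the housekeeping hexokinase HK1 one of 0.12 (edgeR adjusted p 0.326), opposite in sign to their relatives PFKP and HK2. PFKL, the liver phosphofructokinase, differed by −0.04 (SE 0.06) and the pyruvate kinase gene PKM by −0.13 (SE 0.08), with AM medians of 168 and 944 CPM against VM medians of 168 and 1044 CPM. The isomerase gene TPI1 missed the threshold at −0.24 (edgeR adjusted p 0.0749) but was called lower with the replicate number as a block, at −0.23 (edgeR adjusted p 0.000490). So HK2 and PFKP fell while their relatives HK1, PFKM and PFKL were not called, and the difference between relatives was not tested.

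Of the 4 genes for carriers and the pyruvate switch, 3 fell. Pyruvate dehydrogenase kinase 1, PDK1, which shuts the entry of pyruvate into mitochondria, showed the largest averaged difference of the 36. It read 164, 170 and 209 CPM in AM TRAC and 447, 554 and 340 CPM in VM TRAC. In AM LHX2 the values were 205, 172 and 279 CPM against 538, 667 and 443 CPM in VM LHX2. The libraries labelled ZNF503 held 150, 130 and 212 CPM in AM against 435, 522 and 389 CPM in VM. AM ZNF711 held 225, 220 and 207 CPM against 288, 389 and 299 CPM in VM ZNF711, the narrowest gap. Within ZNF711 alone PDK1 was not called, with or without the replicate number as a block. Even so, the highest AM library, at 279 CPM, lay below the lowest VM library, at 288 CPM. The averaged difference of PDK1 was −1.17 (SE 0.10, edgeR adjusted p 2.27e-09), or 2.24-fold.

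SLC2A3, a high-affinity glucose carrier, fell by 0.80 (SE 0.21, edgeR adjusted p 0.00590). Its VM libraries split by replicate number: replicate 3 read 2739, 2550, 2492 and 2866 CPM in TRAC, LHX2, the ZNF503 label and ZNF711, while the other 8 VM libraries read 1027 to 2076 CPM. AM ran from 634 to 1508 CPM, overlapping the lower VM libraries, with 6 of 12 AM libraries below all of VM. SLC16A3, the lactate exporter that hypoxia induces, fell by 0.46 (SE 0.10, edgeR adjusted p 0.000912), from a VM median of 124 CPM to 95.0 CPM. The widely expressed carrier SLC2A1 had an averaged difference of 0.01 (SE 0.14, edgeR adjusted p 0.956), with medians of 433 CPM in AM and 410 CPM in VM.

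The 3 oxygen-sensing genes differed among themselves: EGLN3 rose, HIF1A had a negative fitted value and EGLN1 one near 0. EGLN3, the hydroxylase that HIF itself induces, was the single gene of the 36 to rise in AM, by 0.39 (SE 0.11, edgeR adjusted p 0.00567). It read 34.9, 29.3 and 22.8 CPM in AM TRAC against 21.3, 24.8 and 28.0 CPM in VM TRAC, which overlap. In AM LHX2 it read 33.1, 39.8 and 46.0 CPM against 20.3, 25.9 and 28.2 CPM in VM LHX2, which do not. Of all genes 12.5% had AM above VM without overlap in LHX2. Over all libraries EGLN3 ran from 21.6 to 46.0 CPM in AM and from 20.3 to 28.2 CPM in VM, so its AM levels were the more spread. HIF1A was read at a median of 183 CPM in AM and 205 CPM in VM, a difference of −0.14 (SE 0.07, edgeR adjusted p 0.129). With the replicate number as a block that difference was −0.13 (edgeR adjusted p 0.0362). EGLN1, the main hydroxylase under normal oxygen, differed by 0.08 (SE 0.12, edgeR adjusted p 0.658).

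Among the other hypoxia targets, 10 of the 13 tested fell and 0 rose. VEGFA, the growth factor for blood vessels, read 296, 235 and 218 CPM in AM TRAC and 532, 491 and 602 CPM in VM TRAC. All 12 AM libraries, between 218 and 359 CPM, lay below all 12 VM libraries, between 444 and 602 CPM. Its difference was −0.79 (SE 0.07, edgeR adjusted p 2.37e-09), a 1.72-fold lower level. BNIP3, which tags mitochondria for removal, read 61.5, 65.9 and 59.6 CPM in AM TRAC and 98.7, 132 and 182 CPM in VM TRAC. Its 12 AM libraries, from 57.8 to 89.1 CPM, also lay below all VM libraries, from 98.7 to 182 CPM, with a difference of −0.93 (SE 0.11, edgeR adjusted p 1.77e-07). PDK1, VEGFA and BNIP3 were the 3 of 36 genes that parted the protocols with no overlap at 12 libraries against 12, as 1.56% of all tested genes did in this direction. These counts of separated libraries come from the same contrast as the differences.

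AK4, a mitochondrial adenylate kinase, fell by 1.11 (SE 0.12, edgeR adjusted p 1.94e-07), from a VM median of 107 CPM to 54.9 CPM, with 11 of 12 AM libraries below all of VM and the other reaching into the VM range. P4HA1 and P4HA2, which hydroxylate collagen prolines, fell by 0.76 (edgeR adjusted p 0.00190) and 0.58 (edgeR adjusted p 0.000132). NDRG1, a stress-induced gene of differentiating cells, fell by 0.82 (edgeR adjusted p 0.00155), and ADM by 0.68 (edgeR adjusted p 0.0260). ADM lost its call without any of 5 single libraries, and its smallest difference was −0.55 (edgeR adjusted p 0.0736) without VM ZNF503 replicate 3. Smaller falls were seen for BNIP3L, the relative of BNIP3 (−0.31, edgeR adjusted p 0.0106), ERO1A, the oxidase that forms disulfide bonds in the endoplasmic reticulum (−0.29, edgeR adjusted p 0.00885), and the histone demethylase gene KDM3A (−0.22, edgeR adjusted p 0.0121). KDM3A was not called with library-size scaling (−0.14, edgeR adjusted p 0.128) or without a filter on low counts (edgeR adjusted p 0.0955). DDIT4, an inhibitor of mTOR signalling, MXI1, a MYC antagonist, and ANKRD37 had values of −0.25, −0.19 and −0.58 and were not called (edgeR adjusted p 0.0901, 0.149 and 0.218), though with the block MXI1 was called lower, at −0.17 (edgeR adjusted p 0.0483). Of DDIT4 and ANKRD37, 41.2% and 35.2% of exon bases face a gene on the other strand, and it is not given in the sources used here whether reads were counted by strand.

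**Figure D2:**
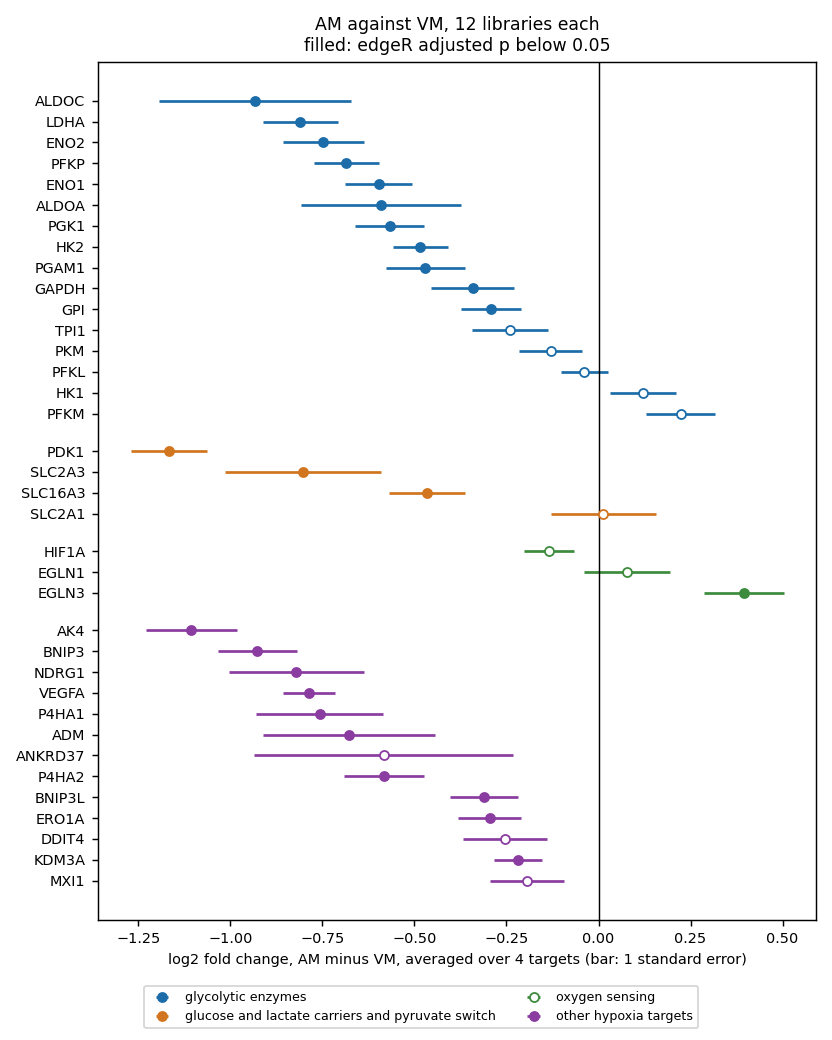
Averaged log2 fold change of AM against VM for each of the 36 genes, over 12 libraries a side, with bars of 1 standard error from the fit. Filled points have an edgeR adjusted p below 0.05. The points run from −1.17 for PDK1 to 0.39 for EGLN3, and 24 filled points lie left of 0.

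The replicate number moved with these genes. VM replicate 3 was the highest of the 3 libraries in all 4 targets for 17 of the 36 genes, as for 11.9% of all tested genes, and VM replicate 1 was the lowest in all 4 for 18, as for 10.7%. The 17 include ALDOC, SLC2A3, SLC2A1, NDRG1, ADM, P4HA1, P4HA2, BNIP3 and ERO1A. ALDOC read 205, 131, 160 and 200 CPM in VM replicate 3 of TRAC, LHX2, the ZNF503 label and ZNF711, against 52.5 and 62.1, 43.2 and 59.5, 48.1 and 52.1, and 100.2 and 127 CPM in replicates 1 and 2. PDK1, PFKP, PFKM, GPI and PKM instead peaked in VM replicate 2 in all 4 targets, as did 5.94% of all genes. Endoderm and liver markers, a list of 9 genes, summed to 8269 to 24590 CPM in VM replicate 3, 1506 to 17651 CPM in VM replicate 2 and 2361 to 9994 CPM in VM replicate 1, and 0 of the 9 genes were at 0 in all libraries. In the averaged comparison 5 of these 9 genes fell and 1 rose in AM. Of the heart muscle markers 7 of 12 fell and 0 rose (median −0.60), of the cell cycle markers 5 of 10 fell and 0 rose (median −0.40), and of the 4 pluripotency markers tested 3 fell and 0 rose (median −1.07). Heart muscle markers summed to 11880 to 21175 CPM in VM replicate 3 and to 16118 to 42730 CPM in the other VM libraries, and fibroblast markers to 4155 to 7355 CPM in AM against 1720 to 4984 CPM in VM. The part of these cell types in the differences was not tested.

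Without replicate 3 in every group, an alternative added after the data were seen, 18 of the 36 genes were called, 17 as lower, where 4521 of the 18055 genes then tested were called, and the median difference was −0.33. ALDOC then differed by −0.29 (edgeR adjusted p 0.0746), ADM by −0.37 (edgeR adjusted p 0.353), ALDOA by −0.32 (edgeR adjusted p 0.356), BNIP3L by −0.23 (edgeR adjusted p 0.200), ERO1A by −0.22 (edgeR adjusted p 0.0745), GAPDH by −0.32 (edgeR adjusted p 0.0928) and KDM3A by −0.13 (edgeR adjusted p 0.251), none of them called. PDK1 was at −1.41 (edgeR adjusted p 4.54e-10), AK4 at −1.03, BNIP3 at −0.85, LDHA at −0.79, VEGFA at −0.72 and SLC2A3 at −0.64, all still called. With the replicate number as a block, which keeps all libraries, 29 of the 36 were called, 27 as lower, where 41.7% of all genes were called, 20.9% lower and 20.8% higher. PFKM then joined EGLN3 as higher in AM, at 0.24 (edgeR adjusted p 0.00640).

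**Figure D3:**
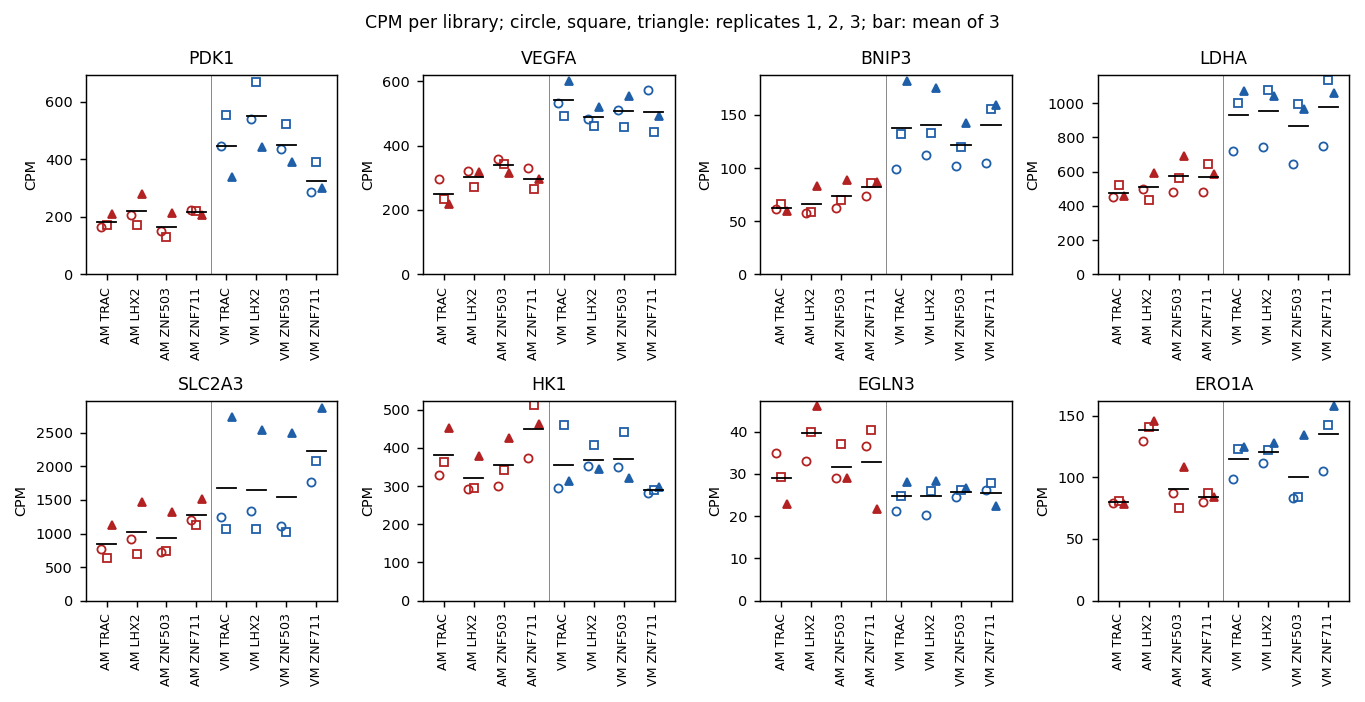
CPM of 8 of the genes in each library. Open circles, open squares and filled triangles are replicates 1, 2 and 3, black bars are means of 3, and the vertical line parts AM (red) from VM (blue). PDK1, VEGFA and BNIP3 show no overlap between AM and VM, VM replicate 3 stands high for SLC2A3, and the 3 AM LHX2 libraries stand above AM TRAC for ERO1A.

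Within single targets, at 3 libraries against 3, the direction was mostly the same. In the TRAC control 14 of 36 genes fell in AM and 0 rose, where 11.3% of all genes were called, 5.12% lower and 6.18% higher. The 12 largest were AK4, PDK1, NDRG1, BNIP3, VEGFA, ENO2, LDHA, PFKP, HK2, SLC16A3, P4HA2 and ENO1, from −1.36 for AK4 to −0.69 for ENO1. For 21 of the 36 the AM and VM values of TRAC did not overlap, with AM the lower, as for 11.7% of all genes. With the block 19 fell and 0 rose, where 19.4% of all genes were called, 9.20% lower and 10.2% higher, and ALDOA (−1.18), SLC2A3 (−0.91) and P4HA1 (−0.86) were the largest that it added. The count fell to 8 without VM TRAC replicate 3 and to 9 without AM TRAC replicate 1 or 2. The smallest p values there were those of VEGFA (−1.12, SE 0.14, edgeR adjusted p 5.04e-06) and PDK1 (−1.30, SE 0.21, edgeR adjusted p 0.000113).

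In LHX2-targeted cells 7 of 36 genes fell (PDK1, BNIP3, LDHA, PFKP, ENO1, VEGFA and PGK1), where 8.56% of all genes were called, 3.88% lower and 4.68% higher. The count was 4 without AM LHX2 replicate 2. With the block it was 17, of which 16 were lower and EGLN3 was higher at 0.69 (edgeR adjusted p 0.0173), where 15.7% of all genes were called, 7.75% lower and 7.94% higher. AK4 (−0.77), SLC2A3 (−0.66), TPI1 (−0.58) and GAPDH (−0.49) were the largest falls that the block added. In the libraries labelled ZNF503, 4 of 36 fell, namely PDK1 (−1.45), PFKP (−0.92), BNIP3 (−0.72) and VEGFA (−0.59), where 8.86% of all genes were called, 4.10% lower and 4.77% higher. With the block 11 fell, where 14.9% of all genes were called, 7.06% lower and 7.85% higher, and those added were AK4 (−0.75), SLC2A3 (−0.67), LDHA (−0.58), PGAM1 (−0.48), ENO1 (−0.43), GAPDH (−0.38) and PGK1 (−0.35). BNIP3 lost its call there without AM replicate 1 or 2 or VM replicate 2 or 3, and the count was then 3. By the test without the block VEGFA and BNIP3 fell in all 4 targets, though without replicate 3 in every group VEGFA was not called with the ZNF503 label (−0.46, edgeR adjusted p 0.123). With the block, 8 genes fell in all 4: SLC2A3, ENO1, PGK1, VEGFA, LDHA, AK4, PGAM1 and BNIP3.

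ZNF711-targeted cells gave 14 calls, 12 lower and 2 higher, where 13.2% of all genes were called, 6.42% lower and 6.81% higher. AK4 fell by 1.54 (SE 0.25, edgeR adjusted p 0.000201), from 104, 166 and 219 CPM in VM to 58.5, 46.5 and 63.8 CPM in AM. P4HA1, ENO2, LDHA, BNIP3, VEGFA, P4HA2, ERO1A, BNIP3L, PGK1, ENO1 and HK2 fell by 0.55 to 1.17. HK1 rose by 0.63 (SE 0.18, edgeR adjusted p 0.0198), at 374, 511 and 463 CPM in AM ZNF711 against 281, 290 and 297 CPM in VM ZNF711, and PFKM rose by 0.59 (SE 0.19, edgeR adjusted p 0.0381), at 183, 257 and 205 against 126, 169 and 131 CPM. Neither pair of groups overlapped. In ZNF711 AM lay above VM without overlap for 4 of the 36 genes, as for 16.5% of all genes. It lay below VM without overlap for 19 of the 36, as for 16.4%. The rises without overlap, and the 2 higher calls, thus do not exceed the background. In the TRAC control HK1 read 330, 364 and 451 CPM in AM against 294, 460 and 313 CPM in VM, which overlap. Heart muscle markers also stood otherwise in ZNF711. They summed to 21020 to 30356 CPM in AM ZNF711 and 11880 to 17909 CPM in VM ZNF711. In TRAC they summed to 19103 to 22440 CPM in AM and 15801 to 42730 CPM in VM. Their median difference was 0.48 in ZNF711 and −0.82 in TRAC, and their part in the HK1 and PFKM differences was not tested. The test of the difference between the protocol effects in ZNF711 and TRAC gave 0.53 for HK1 (SE 0.25, edgeR adjusted p 0.769) and 0.72 for PDK1 (SE 0.29, edgeR adjusted p 0.677), so neither was shown to differ from the control. The count of 14 fell to 3 without VM ZNF711 replicate 3, 5 without VM replicate 2, 7 without AM replicate 1 and 6 without AM replicate 3. HK1 was not called without AM replicate 2 or 3 or VM replicate 2 or 3, and PFKM was not called without AM replicate 2 or 3 or VM replicate 1 or 3. With the block 22 genes were called, 19 lower and 3 higher, where 23.4% of all genes were called, 11.4% higher. ALDOC (−1.18), NDRG1 (−0.94) and SLC2A3 (−0.78) were the largest falls that it added, and HIF1A was also among those called lower. EGLN1 was then the third to rise, at 0.59 (edgeR adjusted p 0.0333).

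**Figure D4:**
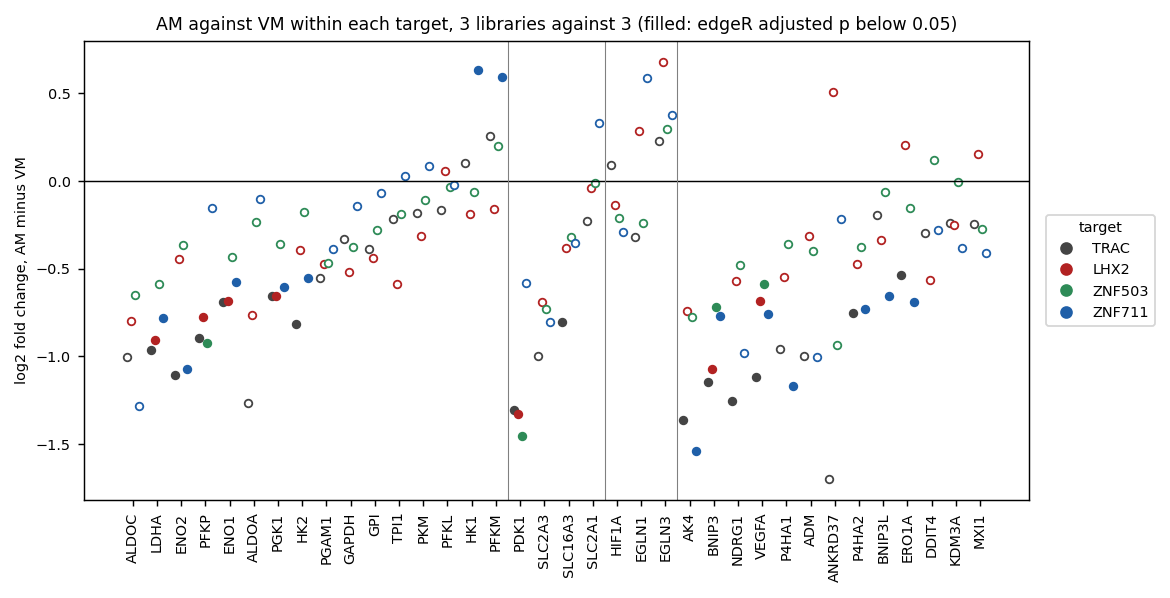
Log2 fold change of AM against VM for each gene within each target, at 3 libraries a side, with genes ordered by role and filled points for an edgeR adjusted p below 0.05. PDK1, AK4, BNIP3 and VEGFA are below 0 in all 4 targets, while HK1 and PFKM are filled above 0 in ZNF711 alone among the 4.

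The next comparisons asked whether editing a target changed these genes within a protocol. Of the 36 genes, 0 were called against TRAC in edgeR's main test in any of the 6 comparisons. At an unadjusted p below 0.05 there were 5 in AM LHX2, 4 in AM with the ZNF503 label, 4 in AM ZNF711, 0 in VM LHX2, 0 in VM with the ZNF503 label and 3 in VM ZNF711. Over all genes the shares at that unadjusted p were 7.74%, 1.74%, 3.49%, 2.61%, 1.55% and 9.40% in the same order, so the 3 in VM ZNF711 stood near the background. With the block 10, 6, 15, 5, 1 and 7 of the 36 had such a p in that order. The shares over all genes were then 14.2%, 3.70%, 8.07%, 5.81%, 3.37% and 17.3%. DESeq2 called 1 of the 36 in AM LHX2, where it called 0.124% of all genes, and 0 in the other 5, where it called at most 0.429%, in VM ZNF711. In edgeR the share called over all genes at the adjusted threshold was 0% in 5 of the comparisons and 0.0169% in VM ZNF711, all of it higher. With the block 0 of the 36 were called in 5 comparisons, where the share over all genes was 0.00564% in AM with the ZNF503 label, 0.0395% in AM ZNF711 (0.0226% lower and 0.0169% higher), 0.00564% in VM LHX2, 0% in VM with the ZNF503 label and 2.27% in VM ZNF711 (1.02% lower and 1.25% higher).

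ERO1A in AM LHX2 was the exception under other settings. It read 129, 141 and 146 CPM in AM LHX2 and 79.2, 80.9 and 78.5 CPM in AM TRAC, with no overlap and little spread in either group. In this comparison 5 of the 36 genes lay above TRAC without overlap and 2 below. Of all genes 9.28% lay above and 9.72% below, so a lack of overlap alone is common here. The fitted difference of ERO1A was 0.80 (SE 0.17, edgeR adjusted p 0.165), or 1.74-fold. With the block it was 0.79 (SE 0.13, edgeR adjusted p 0.00336), where 1.13% of all genes were called, 0.677% lower and 0.457% higher, and DESeq2 gave an adjusted p of 0.0115. Fitting only the 2 groups gave an edgeR adjusted p of 0.00111 and using no filter gave 0.0143, while leaving out single libraries gave 0.262 to 0.721. In VM the same target differed little, with 111, 122 and 128 CPM in VM LHX2 against 98.7, 123 and 124 CPM in VM TRAC. The test of the difference between the LHX2 effects in AM and VM gave 0.74 (SE 0.24) and was not called (edgeR adjusted p 0.999941). AM LHX2 was also the only AM group above its VM counterpart for ERO1A, with all 3 libraries above all 3, at 129 CPM against 128 CPM for the nearest pair. In LHX2 AM lay above VM without overlap for 12.5% of all genes.

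In AM LHX2 the next smallest p values belonged to HK2 (0.33), MXI1 (0.43) and EGLN3 (0.46), given as log2 differences that were not called. In AM with the ZNF503 label they belonged to HK2 (0.48), VEGFA (0.44) and ENO2 (0.63), and in AM ZNF711 to EGLN1 (0.75), PFKP (0.50) and DDIT4 (0.56). VEGFA read 359, 342 and 314 CPM with the ZNF503 label against 296, 235 and 218 CPM in AM TRAC, and EGLN1 read 28.8, 34.6 and 30.2 CPM in AM ZNF711 against 17.4, 18.4 and 19.9 CPM, both without overlap. With the ZNF503 label 9 of the 36 lay above AM TRAC without overlap and 0 below, as for 4.54% and 4.01% of all genes. In AM ZNF711 it was 10 above and 1 below, as for 5.61% and 6.13% of all genes. Of the 36 genes, 24, 31 and 31 had positive fitted values in the 3 AM comparisons, with medians of 0.14, 0.18 and 0.25, against medians of 0.00, 0.00 and 0.01 over all genes. Without replicate 3 in every group 17, 26 and 30 were positive, with medians of −0.04, 0.07 and 0.25, so the AM LHX2 median turned its sign. These 3 comparisons share the AM TRAC libraries, so they are not independent of each other. In VM the medians were −0.03, −0.09 and 0.05. The smallest p values in VM were those of ALDOA, PFKL and KDM3A in LHX2, of AK4, ERO1A and HK2 with the ZNF503 label, and of DDIT4 (0.54), PDK1 (−0.46) and BNIP3L (0.40) in ZNF711, none of them called. For the difference of a target's effect between AM and VM, 0 of the 36 genes were called for any target. In edgeR 4, 3 and 4 had an unadjusted p below 0.05, as for 3.72% and 1.95% of all genes for LHX2 and the ZNF503 label and 1135 of 17724 genes for ZNF711. With the block these counts were 11, 11 and 10, where 8.21%, 4.16% and 10.4% of all genes had such a p. DESeq2 called 0 of the 36, where 0%, 0% and 0.0564% of all genes were called.

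Genes of the same pathways outside the 37 were counted from lists in the averaged comparison of AM with VM. Of 39 other glycolysis and pyruvate genes 34 were tested, of which 13 fell and 1 rose, with a median of −0.16. For this and the lists below the background is the 34.5% of all genes called, 17.6% as lower and 16.8% as higher. The totals of 14 of 34 called here, and of 6 of 15 and 8 of 19 below, are near it, so they are no result about those lists. By direction, 13 lower of 34 here and 7 lower of 19 below exceed the 17.6%, while the 1 higher in each is under the 16.8%. The lists were not tested as sets. Among the glycolysis and pyruvate genes that fell were the hexokinase gene HKDC1 (−4.16), the liver and red cell pyruvate kinase PKLR (−3.53), FBP1 of glucose synthesis (−2.02) and the glycogen branching enzyme GBE1 (−0.82). HKDC1, PKLR and FBP1 averaged 0.942, 0.219 and 1.52 CPM in AM against 19.2, 2.85 and 6.15 CPM in VM, low levels with wide spread (SD 18.8, 2.36 and 4.74 CPM in VM).

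Of 15 genes of the oxygen-sensing machinery, 4 rose and 2 fell. EPAS1, the HIF alpha subunit typical of endothelium, rose by 1.91 (SE 0.15) from a mean of 51.1 CPM in VM (SD 19.1, n = 12) to 190.4 CPM in AM (SD 62.6, n = 12), and ARNT2, a partner subunit, by 1.89 (SE 0.17) from 12.1 to 44.9 CPM. CREBBP, a HIF coactivator, and VHL, which marks HIF for destruction, rose by 0.33 and 0.30, while SIAH2 and HIF3A fell by 0.77 and 0.31. Endothelial markers, a list of 7, rose for 5 genes in the same comparison and summed to 408 to 793 CPM in AM and 328 to 462 CPM in VM, and their part in the EPAS1 difference was not tested. Of 30 other hypoxia targets, 18 fell and 2 rose, with a median of −0.32. Among those that fell were EDN1 (−3.33), LOX (−2.97), LOXL2 (−1.48) and CITED2 (−1.23), and STC2 rose by 0.78. Of 19 genes of folding in the endoplasmic reticulum and of the integrated stress response, 7 fell and 1 rose, with ATF3 (−0.65), DDIT3 (−0.62), DNAJB9 (−0.59), P4HB (−0.46) and XBP1 (−0.44) the largest. With the block, 3 genes of these lists were called in VM ZNF711 against VM TRAC, where 2.27% of all genes were called: LOX (1.24), EPAS1 (0.57) and, as the one that fell, the insulin-responsive glucose carrier SLC2A4 (edgeR adjusted p 0.00850).

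How the genes varied around their group means was described by the correlation of log2 CPM deviations over the 24 libraries. These values carry no p, since libraries share replicate numbers and scaling. The median r over 630 pairs of the 36 genes was 0.50, against 0.01 over pairs of all genes at a mean log2 CPM of 3 or more. ENO1 and PGK1 were closest (r = 0.98), then LDHA with PGK1 (0.95), BNIP3 with SLC16A3 (0.94), GAPDH with PGK1 (0.94) and SLC2A3 with NDRG1 (0.94). VEGFA stood apart with a median r of 0.00 to the others, as did PFKM (−0.14), KDM3A (−0.10) and PDK1 (0.06), whose closest partners were PFKP (0.75) for PDK1 and PDK1 (0.74) for PFKM. The median over all pairs was 0.45 in AM libraries alone, 0.60 in VM libraries alone, 0.35 without replicate 3 and 0.68 without replicate 2.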

How the data were processed

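The measurement was bulk RNA sequencing of 24 libraries, 8 groups of 3. The authors deposited 1 table of gene counts, whole numbers per Ensembl gene, and aligned reads with STAR to GRCh38 per the submitters' processing notes. The counting program, its strand setting, its annotation and all versions are not given in the sources used here, and the labels name both polyA RNA and ribosomal RNA depletion (KAPA RiboErase). All columns matched a library (0 unmatched). Genes were kept with filterByExpr (17724 of 62757), scaled by TMM and tested with edgeR 4.0.16 in R 4.3.3 by robust quasi-likelihood fits with a mean for each group. In each of 14 comparisons the Benjamini-Hochberg adjustment ran over every gene tested: 6 of a target with TRAC, 4 of AM with VM, their average and 3 interactions. The standard error is the log2 fold change over the root of F. CPM use TMM-scaled library sizes, and CPM per kilobase use exon unions of GENCODE 29. The floor of 3 counts equals 0.403 to 1.03 CPM by library and covers counting error only. Fitted biological variation (BCV) stood at 25.0%, and at 16.9% with the replicate block.

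The fit behind the counts and p values has no block for the replicate number, which enters only as an alternative. Counts of calls are given with it, but not every gene whose call it changed is named. The numbers were taken to pair libraries because over about 11430 genes deviations from group means had correlations of 0.12 to 0.79, in all 10 pairs of groups compared, though the labels do not say what a number marks. The 37 genes, the further pathway and marker lists and the tests were chosen with earlier results of these data known. By rule, each comparison names up to 12 called genes by size of change, in the fit with or without the block, and 3 uncalled ones with the smallest p, and at most 5 called genes of each further list, of which a few are not reported here. Alternatives were other scalings (RLE, library size), no filter, a filter of 1 CPM in 3 libraries, fits of only the groups compared, DESeq2 1.42.0, the replicate block and each library left out. A block within each protocol, leaving out replicate 3 everywhere, and correlations within AM or VM were added after the data were seen. The fit without the block was also run on simulated counts. These were drawn separately for each library with no shared replicate effect, so the run cannot show how the fit behaves where replicates share deviations.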

Additional observations from a re-analysis of the deposited data

How the results depend on the processing

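The count of 25 called genes in the averaged comparison of AM with VM was 23 to 27 with 1 library left out and 24 to 32 under the alternatives that kept all libraries. With library-size scaling it was 24, of which 22 were lower. Among all genes called, the share that were higher then moved from 48.8% to 60.3%. It likewise moved from 54.7% to 65.9% in LHX2 and from 53.8% to 64.7% with the ZNF503 label. Counts within single targets moved more. With 1 library left out they ran from 8 to 15 in TRAC, 4 to 10 in LHX2, 3 to 6 with the ZNF503 label and 3 to 13 in ZNF711. With no filter they were 15 in LHX2 and 8 with the ZNF503 label, where 4.92% and 4.87% of 38838 genes were called. With the replicate block, which pairs libraries by number, they were 17 in LHX2, 11 with the ZNF503 label and 22 in ZNF711. With a block within each protocol they were 23 in TRAC, 24 in LHX2, 16 with the ZNF503 label and 25 in ZNF711, where 23.7%, 19.5%, 18.9% and 27.8% of all genes were called. Without replicate 3 in every group TRAC gave 9, where 8.72% were called. Against TRAC, AM LHX2 gave 1 called gene with no filter, with the replicate block, with only the groups compared and with DESeq2, where 0.250%, 1.13%, 1.09% and 0.124% of all genes were called. The block within each protocol gave 3 in AM LHX2, 2 in AM with the ZNF503 label, 3 in AM ZNF711, 7 in VM ZNF711 and 3 for the ZNF711 interaction, where 3.11%, 0.0564%, 0.530%, 8.35% and 2.54% of all genes were called. Without replicate 3 in every group there were 1 in AM ZNF711 and 3 in VM ZNF711, where 0.233% and 4.97% of all genes were called. The replicate block changed no other count of calls by over 1.5 times. The median correlation of 0.50 was 0.68 without replicate 2, 0.35 without replicate 3 and 0.41 without replicate 1. Called directions of the named genes were not reversed under any alternative run. The cause of these movements was not tested. Depth limits CA9 and ANKRD37 most, at 77 and 233 counts over all 24 libraries.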
